A study of Homo sapiens with 6 samples.

Results

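The kinesin genes of HCT116 cells were followed into treatment with BMH-21. Members were the rows of the deposited table whose symbol is KIF or KIFC followed by a number and at most a single letter from A to C, and 41 of 25662 genes met this rule. By textbook role, 14 are motors of mitosis, 15 are transport motors and 12 belong to cilia or have other or less settled roles. HCT116 is an established human colorectal carcinoma line. Each group held 3 libraries, described as biological replicates, of cells grown in the same medium with serum. The treated cells received 1 µM BMH-21, a DNA-intercalating inhibitor of RNA polymerase I, for 24 h. The labels' protocols give DMSO for controls, while the control titles read 0 h, so drug and time in culture cannot be told apart if controls were taken at the start. The values are TPM, a length-adjusted share of each library, and sequencing depth is unknown.

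Kinesins are motors that burn ATP to walk along microtubules or to take microtubule ends apart. In dividing cells, mitotic kinesins push spindle poles apart, hold chromosomes at the metaphase plate, trim kinetochore microtubules and build the midzone where the cell is cut. Transport kinesins carry vesicles, mitochondria and ciliary cargo in cells whether or not they divide. Genes of many mitotic kinesins are transcribed late in the cell cycle, and in dividing human cells a cell cycle homology region (CHR) and NF-Y boxes near their start sites are known to set this timing.

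The libraries carried the RNA of an epithelial line. Summed TPM of 7 measured epithelial markers was 5143 to 5377 in controls and 11423 to 13010 after BMH-21. KRT8, KRT18 and KRT19 were the main part of it, while VIL1 stayed under 1 TPM. Of the leukocyte, endothelial and fibroblast markers measured, 8 of 10 never reached 1 TPM, and COL1A2, DCN and LUM were at 0 in all 6 libraries. The other two were CD68, which averaged 3.61 TPM in controls and 0.522 TPM with BMH-21, and COL1A1, which averaged 4.04 and then 2.34 TPM. Both were called lower, as were 16.9% of all genes tested. CD68 had no BMH-21 library at 1 TPM and so, under the filter given below, had to be lower. The part of CD68 and COL1A1 in the kinesin results was not tested. Of 3 neuron markers, SYT1 lay between 2.27 and 4.14 TPM in all libraries, and RBFOX3 and SNAP25 stayed under 1 TPM. Control replicate 1 and BMH-21 replicate 3 stood apart from their groups. Over 11515 genes, the deviation of control replicate 1 from its group rose with transcript GC content (Pearson r = 0.56), and that of BMH-21 replicate 3 with transcript length (r = 0.37). These correlations run across genes, which are not independent.

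Most mitotic motors fell steeply after BMH-21, while none of the transport motors kept was called in either direction. Of the 41 kinesin genes, 25 were kept for testing, with a TPM of 1 or more in at least 3 of the 6 libraries. By limma with Benjamini-Hochberg adjustment over all genes kept, 14 of the 25 did not pass at an adjusted p under 0.05, while 10 were lower and 1 was higher. In the same comparison, 16.9% of all 12041 genes kept were lower and 19.4% were higher. The lower genes were 8 of 9 mitotic motors kept, 0 of 10 transport motors and 2 of 6 cilium and other motors. Of the 9 mitotic motors kept, 4 (KIF20A, KIF18B, KIF4A and KIF11) had no BMH-21 library at 1 TPM. These passed the filter through their control libraries and had to be lower. The count over all 14 mitotic genes does not have this limit: in 13 of them every BMH-21 library lay under every control library, against 15.1% of the 21753 genes with any value. Counted the same way, 2 of 15 transport motors were lower (KIF21B and KIF5C) and 2 were higher (KIF3A and KIF1A), against 20.1% of genes higher. The median log2 fold change of the 10 transport motors kept was -0.04, and that of all genes kept was 0.06. Without control replicate 1 and BMH-21 replicate 3, which stood apart, 5 of the 10 were lower, as were 34.4% of all genes kept. The transport median was then -0.26, against -0.07 for all genes kept. In bulk RNA, fewer cells in mitosis and less of these transcripts per cell cannot be told apart.

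**Figure D1:**
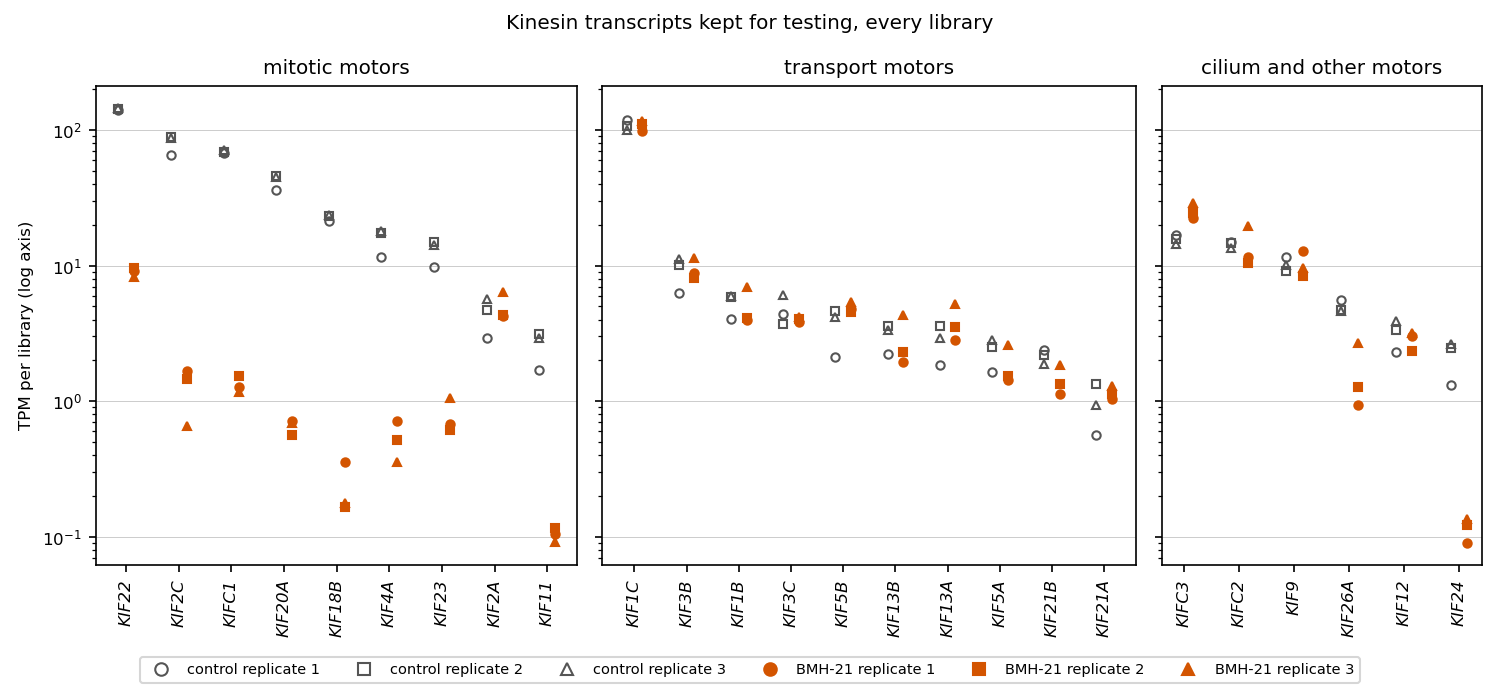
TPM of the 25 kinesin genes kept, on a log axis, with each library as a point (open grey, control; filled orange, BMH-21; n = 3 per group) and genes ordered by control mean within each role. For 8 of 9 mitotic motors the orange points lie far under the grey ones, while for KIF2A and for 9 of 10 transport motors the groups overlap.

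The promoters of the 3 mitotic motors with the largest falls on the log2 scale, and of the transport motor with the highest mean, are shown to set the steepest falls beside an abundant motor whose level hardly differed between groups. Each window holds 250 bases before and 50 after the RefSeq start site (build GRCh38.p14, plus strand for all 4), read 5′ to 3′. Capitals mark every match, on either strand, to TTTGAA or TTTAAA (letters of the CHR), CCAAT (the NF-Y box), and TTTCCCGC or TTTGGCGC (letters of E2F sites). The windows are chr1:44739587-44739886 for KIF2C, chr6:33391573-33391872 for KIFC1, chr5:138178862-138179161 for KIF20A and chr17:4997700-4997999 for KIF1C.
KIF2C: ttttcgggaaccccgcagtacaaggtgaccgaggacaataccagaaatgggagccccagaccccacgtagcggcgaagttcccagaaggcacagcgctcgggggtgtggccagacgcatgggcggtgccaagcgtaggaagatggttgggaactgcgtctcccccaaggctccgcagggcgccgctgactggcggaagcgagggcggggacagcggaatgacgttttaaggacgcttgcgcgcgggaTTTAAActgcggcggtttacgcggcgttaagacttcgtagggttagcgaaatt
KIFC1: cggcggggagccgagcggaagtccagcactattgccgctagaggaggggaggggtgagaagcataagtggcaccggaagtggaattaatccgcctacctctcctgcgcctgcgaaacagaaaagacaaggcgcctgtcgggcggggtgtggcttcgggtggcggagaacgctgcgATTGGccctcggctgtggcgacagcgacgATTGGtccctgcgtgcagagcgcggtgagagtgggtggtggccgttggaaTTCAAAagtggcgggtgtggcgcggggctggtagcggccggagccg
KIF20A: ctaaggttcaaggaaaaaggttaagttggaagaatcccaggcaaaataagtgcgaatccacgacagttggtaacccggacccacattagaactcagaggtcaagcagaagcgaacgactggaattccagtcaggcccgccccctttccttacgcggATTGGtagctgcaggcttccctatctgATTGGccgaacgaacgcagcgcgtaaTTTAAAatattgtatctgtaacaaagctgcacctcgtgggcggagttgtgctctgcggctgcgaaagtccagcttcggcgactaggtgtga
KIF1C: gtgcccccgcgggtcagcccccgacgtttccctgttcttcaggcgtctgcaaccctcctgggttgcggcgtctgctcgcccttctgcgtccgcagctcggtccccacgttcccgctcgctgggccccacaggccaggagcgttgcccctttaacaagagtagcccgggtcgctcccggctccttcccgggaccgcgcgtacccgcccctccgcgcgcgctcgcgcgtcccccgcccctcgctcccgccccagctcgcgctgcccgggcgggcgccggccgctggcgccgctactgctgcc
KIF20A and KIFC1 hold 2 NF-Y boxes each, all in the reverse orientation (ATTGG), followed by CHR letters at -41 in KIF20A and at +5 in KIFC1. KIF2C has CHR letters at -3 and no CCAAT, and the KIF1C window has no match.

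Spindle assembly motors were low in every treated library. KIFC1, a minus-end-directed motor that bundles spindle microtubules and focuses poles, measured 68.0, 68.9 and 70.8 TPM in controls and 1.27, 1.53 and 1.17 TPM in treated cells. The 3 controls lay within a few percent of each other and the 3 treated libraries were all far under them. The fall was 52.3-fold by the ratio of means, with a log2 fold change of TPM + 1 of -4.92 (limma, SE 0.12, adjusted p = 8.89e-08). KIF11 (Eg5), the plus-end motor that slides antiparallel microtubules to make the spindle bipolar, was at 1.69, 3.10 and 2.92 TPM and then at 0.104, 0.116 and 0.0922 TPM. Its log2 fold change of -1.67 (limma, SE 0.18, adjusted p = 0.000173) understates a 24.7-fold ratio of means, since the pseudocount of 1 is large beside these levels. KIF15, which can take over part of the work of KIF11, was under 1 TPM in all 6 libraries and was not kept. It measured 0.422, 0.776 and 0.637 TPM in controls against 0.0196, 0.1002 and 0 TPM.

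Chromosome arm motors, which push chromosomes away from the poles, fell too. KIF22 (chromosome 16, 29790719 to 29805385 on GRCh38), which binds DNA along chromosome arms, had the highest control level of all kinesin genes, at 140.5, 142 and 146 TPM. After BMH-21 it was at 9.12, 9.56 and 8.23 TPM, a 15.9-fold fall (log2 fold change -3.85 by limma, SE 0.09, adjusted p = 6.87e-08). Among the 8 mitotic motors called lower, its mean of 8.97 TPM after BMH-21 was the highest. KIF4A, which shortens overlaps of the central spindle and acts with condensin, measured 11.5, 17.3 and 18.0 TPM in controls and 0.714, 0.518 and 0.354 TPM in treated cells. Its lowest control was replicate 1, and no treated library came near it. The fall was 29.5-fold (log2 fold change -3.42 by limma, SE 0.20, adjusted p = 4.65e-06). Its exons overlap those of PDZD11 on the opposite strand, which averaged 46.1 TPM in controls and 55.3 TPM with BMH-21. KIF4B, a near-identical intronless copy of KIF4A, stayed under 0.06 TPM in all libraries, and how reads were split between the copies is uncertain.

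The motors that act at microtubule ends divided. KIF2C (MCAK; chromosome 1, 44739818 to 44767767), a depolymerase that corrects faulty kinetochore attachments, measured 65.6, 88.0 and 87.5 TPM in controls and 1.67, 1.46 and 0.655 TPM in treated cells. That is a 63.7-fold fall, with a log2 fold change of -5.19 (limma, SE 0.21, adjusted p = 4.94e-07), the largest on that scale among kinesin genes kept. KIF18B, which controls astral microtubule length, went from 21.4, 23.3 and 23.6 TPM to 0.354, 0.165 and 0.178 TPM. Its ratio of means of 97.8 was the largest of the family, while its log2 fold change of TPM + 1 was -4.27 (limma, SE 0.15, adjusted p = 3.03e-07). KIF18A, which damps chromosome oscillations at the metaphase plate, was at 1.02, 1.47 and 0.998 TPM in controls and 0.232, 0.345 and 0.203 TPM in treated cells, a 4.46-fold lower mean, and was not kept.

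KIF2A was the mitotic motor kept that had no call. It depolymerizes microtubules at spindle poles and also prunes axon branches in neurons, and it has roles outside mitosis. Its control values were 2.93, 4.71 and 5.65 TPM and its BMH-21 values 4.22, 4.34 and 6.38 TPM, so the groups overlapped. The log2 fold change was 0.15 (95% interval -0.38 to 0.69, limma adjusted p = 0.644), which leaves room for a modest change either way and not for a fall like that of KIF2C. Without the libraries that stood apart (control replicate 1, BMH-21 replicate 3), its value was -0.22. Its gene shares exon sequence with IPO11 on the same strand, which measured 4.58 TPM in controls and 4.61 TPM in treated cells. KIF2B, the remaining member of this subfamily, is not analysed here.

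Ratios between paralogs within a library do not depend on how libraries are scaled. The ratio of KIF2C to KIF2A was 15.5 to 22.4 in controls and 0.103 to 0.395 after BMH-21, so KIF2A became the more abundant transcript of the pair. KIF18B was 15.9 to 23.6 times KIF18A in controls and 0.479 to 1.52 times KIF18A after BMH-21. KIF20A was 114 to 197 times KIF20B in controls and 5.90 to 23.6 times KIF20B after BMH-21. In each of the 3 pairs the groups did not overlap, and the two-sided exact permutation test gave p = 0.1, the smallest that 3 against 3 libraries allow (0.1 also after Benjamini-Hochberg adjustment over the 3 pairs). The pairs were not among the planned results, and non-overlap was not counted over other gene pairs. Among single genes kept, 22.0% were lower and 29.6% higher with no overlap. KIF18A was at 1.47 TPM or less and KIF20B under 1 TPM in all libraries, so their ratios rest on few reads. KIF18B and KIF20A had no BMH-21 library at 1 TPM. They passed the filter through controls and had to be lower, which limits what the ratios in these pairs can show.

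Motors of the central spindle and cytokinesis were lower as well. KIF20A (MKLP2; chromosome 5, 138178719 to 138187715), which carries the chromosomal passenger complex to the midzone, measured 35.8, 45.9 and 44.7 TPM in controls and 0.719, 0.565 and 0.687 TPM in treated cells. The mean was 64.2-fold lower (log2 fold change -4.70 by limma, SE 0.15, adjusted p = 2.04e-07). Exons of KIF20A overlap those of CDC23 and BRD8 on the opposite strand, and these went from 17.3 to 17.3 and from 21.1 to 11.6 TPM in the mean. KIF23 (MKLP1), the motor of the centralspindlin complex, measured 9.74, 14.9 and 14.2 TPM and then 0.678, 0.618 and 1.05 TPM. Its log2 fold change was -2.95 (limma, SE 0.20, adjusted p = 9.61e-06). KIF14, which brings citron kinase to the midbody, and KIF20B were not kept. KIF14 was listed at 0 in BMH-21 replicates 2 and 3 and at 0.0263 TPM in replicate 1, against 0.242 to 0.458 TPM in controls. KIF20B was 0.182 to 0.393 TPM in controls and 0.0291 to 0.0957 TPM after BMH-21.

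The mitotic motors that missed the filter lay on the same side. With no filter on low values, 12 of the 14 mitotic genes were lower by limma, where 8.85% of 21753 genes were lower and 9.28% were higher. Leaving out each library in turn, 8 of the 9 mitotic motors kept were lower in every fit. Of these, KIF20A, KIF18B, KIF4A and KIF11 had to be lower in each such fit, since the filter was set before libraries were left out. In those fits the share of all genes kept that were lower was 16.8%, 12.6% and 12.6% without control replicates 1, 2 and 3, and 13.0%, 12.6% and 23.4% without BMH-21 replicates 1, 2 and 3. With no filter, the mitotic genes without a call were KIF2A and KIF4B. In the mean, 10 of the 14 were at least 10-fold lower, against 6.80% of the 21753 genes with any value, a share that includes genes listed at 0 in every treated library.

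**Figure D2:**
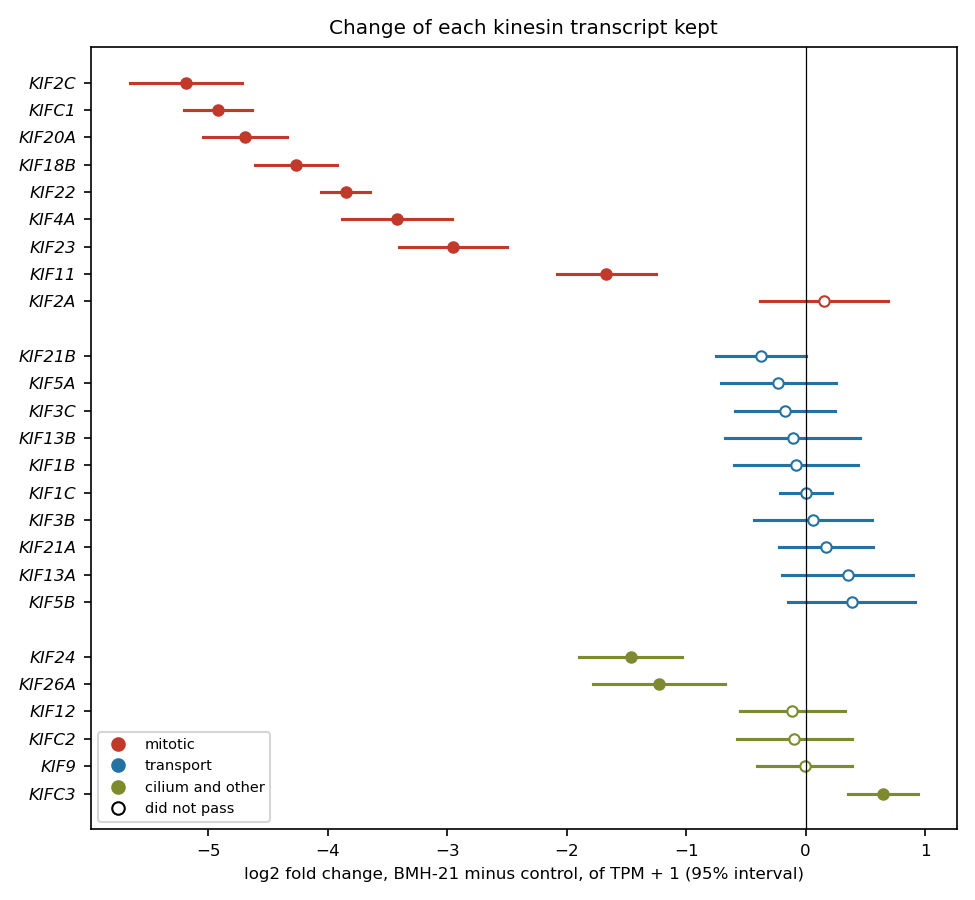
Log2 fold change of TPM + 1 (BMH-21 minus control) for each kinesin gene kept, with its 95% interval from limma; filled points passed at an adjusted p under 0.05 and open points did not. Falls among mitotic motors run from -5.19 for KIF2C to -1.67 for KIF11, KIF2A lies at 0.15, and all 10 transport motors lie between -0.37 and 0.39.

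Transcripts of proteins that work with mitotic motors followed the same direction. Of 12 listed partners, 11 were kept, and all 11 were lower by limma, against 16.9% of all genes kept. CIT, GTSE1 and HMMR, 3 of the 11, had no treated library at 1 TPM, passed the filter through controls and had to be lower. PRC1, which bundles the midzone microtubules that KIF4A binds, went from 55.6 ± 10.7 to 2.08 ± 0.787 TPM (SD, n = 3). AURKB, GTSE1 and NUSAP1, a kinase, a microtubule-tip protein that restrains KIF2C, and a spindle microtubule bundler, had log2 fold changes of -5.75, -4.07 and -3.56. CENPE, the kinetochore kinesin whose symbol falls outside the naming rule, was at 0.0902 ± 0.0263 TPM in controls and was listed at 0 in BMH-21 replicates 2 and 3. It was not kept. All 5 proliferation markers were lower, though 3 of them, MKI67 included, had no treated library at 1 TPM and so had to be lower. MKI67 was at 19.9 ± 5.90 and then 0.230 ± 0.0129 TPM, and CCNB1 at 265 ± 23.4 and then 11.3 ± 2.12 TPM. Their part in the fall of the motors was not tested.

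Among transport motors, none of the 10 kept passed limma's test after adjustment, and 1 (KIF21B) had an unadjusted p under 0.05. KIF1C (chromosome 17, 4997948 to 5028401), a kinesin-3 that moves vesicles and integrins, was the leading transport motor. It measured 119, 106 and 99.6 TPM in controls and 98.8, 109.8 and 117 TPM in treated cells, with fully overlapping groups. Its log2 fold change was 0.00 (95% interval -0.21 to 0.22, limma adjusted p = 0.98), so a change as large as that of any called mitotic motor lies outside the interval. Its sign turned, to -0.0538 and -0.0566, with trimmed mean and median of ratios scaling.

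The other kinesin-3 motors were much lower in level. KIF1B, which carries mitochondria and synaptic vesicle precursors, measured 4.03, 5.83 and 5.94 TPM in controls and 3.94, 4.12 and 6.93 TPM in treated cells. KIF13A and KIF13B, which sort endosomal and membrane cargo, had log2 fold changes of 0.35 and -0.11. In all of these the highest treated library was replicate 3. KIF16B, an early endosome motor, ranged from 0.233 to 0.639 TPM, and KIF1A, a neuronal motor, stayed under 0.1 TPM, and neither was kept.

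Kinesin-1 and kinesin-2 motors were likewise without a call. KIF5B, the ubiquitous heavy chain of conventional kinesin, measured 2.10, 4.65 and 4.15 TPM in controls and 4.75, 4.53 and 5.34 TPM in treated cells. Its control replicate 1 lay apart, and the log2 fold change was 0.39 (95% interval -0.15 to 0.92, limma adjusted p = 0.228). Its paralogs KIF5A and KIF5C, known mainly from neurons, averaged 2.33 and 0.514 TPM in controls and 1.85 and 0.274 TPM in treated cells. KIF3B, part of the heterotrimeric motor of intraflagellar transport, measured 6.31, 10.1 and 11.1 TPM and then 8.85, 8.13 and 11.4 TPM. KIF3A, its partner in that motor, was not kept. It rose from 0.362, 0.539 and 0.522 TPM to 1.09, 0.768 and 1.26 TPM by limma when no gene was filtered out (adjusted p = 0.0477). KIF3C, a further kinesin-2 subunit, had a log2 fold change of -0.17, and KIF17, a homodimeric kinesin-2, stayed between 0.521 and 1.13 TPM.

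KIF21A and KIF21B, kinesin-4 motors that curb microtubule growth, did not pass either. KIF21B measured 2.37, 2.19 and 1.89 TPM in controls and 1.14, 1.34 and 1.85 TPM in treated cells, so the groups did not overlap. Among genes kept, 22.0% were lower with no overlap. Its adjusted p was 0.107 at a log2 fold change of -0.37. Without BMH-21 replicate 3 it passed at -0.49 (limma adjusted p = 0.0338). It also passed as lower with trimmed mean scaling, median of ratios scaling and the GC and length trend of each library removed, settings in which 20.6%, 20.7% and 21.8% of all genes were lower. KIF21A was at 0.565 to 1.34 TPM in controls and 1.05 to 1.30 TPM after BMH-21.

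All 10 transport motors kept were highest, among treated libraries, in BMH-21 replicate 3, where 65.3% of all genes kept had their highest treated value. With control replicate 1 and BMH-21 replicate 3 both left out, 5 of the 10 were lower by limma (KIF1B, KIF3B, KIF5A, KIF13B and KIF21B), with log2 fold changes from -0.29 for KIF3B to -0.56 for KIF5A. In that setting 34.4% of all genes kept were lower, and the median log2 fold change was -0.26 for transport motors and -0.07 for all genes. The 8 mitotic motors were lower there too.

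Adaptors and light chains of the transport motors were mostly without a call. Of 20 listed partners and dynein subunits, 19 were kept: 16 did not pass, 2 were lower and 1 was higher, where 16.9% of all genes kept were lower and 19.4% higher. Their median log2 fold change was 0.06. KLC3, a kinesin-1 light chain, rose from 25.6 ± 0.211 to 39.8 ± 3.55 TPM (SD, n = 3). The light chains KLC1, KLC2 and KLC4 did not pass, at log2 fold changes of -0.20, 0.06 and 0.09. KIFAP3, the cargo subunit of the KIF3 motor, had a value of -0.39 without passing. MAPK8IP1, a kinesin-1 cargo scaffold, and KIFBP, which binds and blocks the motor domain of several kinesins, fell with log2 fold changes of -0.69 and -0.66.

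The cilium and other motors did not move as a set. KIFC3, a minus-end-directed motor of cell junctions and the Golgi, was the kinesin called higher among those kept. It measured 16.9, 15.7 and 14.3 TPM in controls and 22.4, 24.2 and 28.8 TPM in treated cells, with every treated library above every control, as in 29.6% of genes kept. The rise was 1.61-fold (log2 fold change 0.65 by limma, SE 0.13, adjusted p = 0.00469). KIFC2, a further minus-end-type kinesin, measured 15.0, 14.6 and 13.5 TPM and then 11.5, 10.5 and 19.6 TPM. Its only treated library above controls was replicate 3, and without that library it passed as lower (log2 fold change -0.36, limma adjusted p = 0.0335).

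KIF24 and KIF26A were the lower genes of this set. KIF24, a centriolar depolymerase that keeps cilia from forming in cycling cells, measured 1.31, 2.47 and 2.65 TPM in controls and 0.0900, 0.122 and 0.136 TPM in treated cells. Its mean was 18.5-fold lower (log2 fold change -1.47 by limma, SE 0.19, adjusted p = 0.000483), and it too passed the filter through controls. It shares exon sequence with UBAP1 on the opposite strand. KIF26A, an unusual kinesin without ATPase activity in the mouse, measured 5.59, 4.69 and 4.62 TPM and then 0.936, 1.28 and 2.71 TPM. Its log2 fold change was -1.23 (limma, SE 0.24, adjusted p = 0.00463). Both stayed under a mean of 5 TPM over all libraries, and with that as the filter 0 motors of this set were lower, where 19.7% of genes were. KIF9, linked to motile cilia, was at 11.5, 9.07 and 10.1 TPM and then 12.8, 8.35 and 9.64 TPM. It lies over exons of KLHL18 and KIF9-AS1 on the opposite strand. KIF12 averaged 3.20 TPM in controls and 2.85 TPM in treated cells.

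The remaining members of the set were not kept. KIF7, a regulator of Hedgehog signalling at the cilium tip, averaged 0.489 TPM in controls and 0.0359 TPM in treated cells. Its exons overlap those of TICRR on the opposite strand, a replication gene that went from 8.80 to 0.0863 TPM. The counting strand is not given in the sources used here, so reads of the pair cannot be told apart. KIF19, which limits cilium length in the mouse, averaged 0.312 TPM and then 0.0696 TPM, and KIF26B 0.117 TPM and then 0.360 TPM. When no gene was filtered out, KIF7 and KIF19 passed as lower by limma (adjusted p = 0.00979 and 0.0111). KIF27, a relative of KIF7, reached 0.164 TPM at most, KIF6 was listed at 0 in controls and reached 0.0524 TPM, and KIF25 was at 0 in all libraries.

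The kinesin transcript pool had a different make-up in treated cells. Summed over the 14 mitotic genes, TPM was 359, 410.5 and 415 in controls and 19.2, 19.4 and 19.0 after BMH-21. Summed over the 15 transport genes, it was 146, 147 and 141 in controls and 131, 143 and 163 after BMH-21. Mitotic motors thus made up 66.8 ± 2.18% of kinesin TPM in controls and 8.83 ± 0.981% after BMH-21 (SD, n = 3). KIF1C alone went from 18.4 ± 2.52% to 49.6 ± 2.62% of the pool with no change of its own level passing the test. These shares are descriptions, since a share falls whenever another rises.

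**Figure D3:**
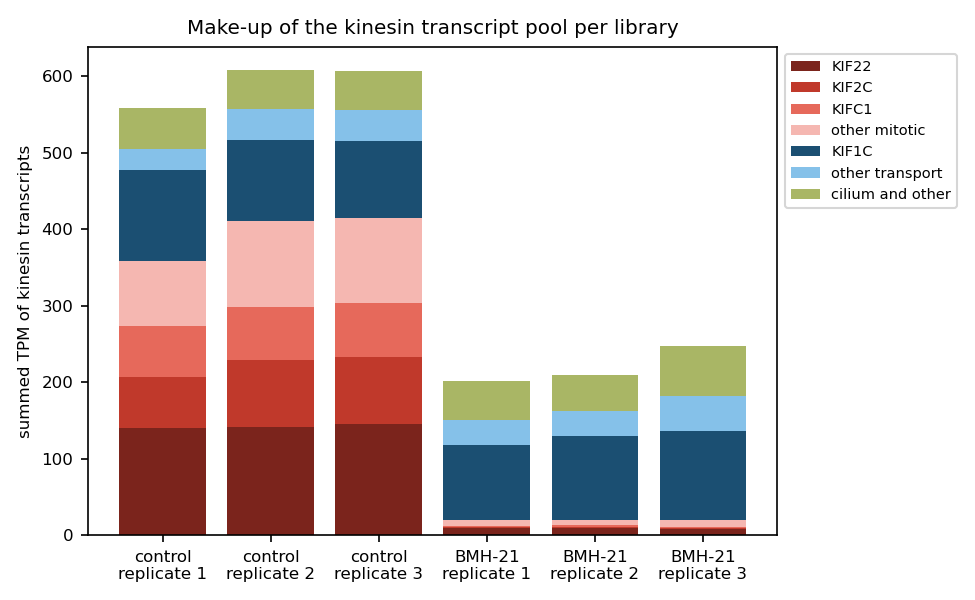
Summed TPM of all 41 kinesin genes in each library, stacked by role, with KIF22, KIF2C, KIFC1 and KIF1C drawn separately. The mitotic part (reds) is 359 to 415 TPM in the 3 controls and 19.0 to 19.4 TPM in the 3 BMH-21 libraries, while the transport part (blues) stays between 131 and 163 TPM.

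Mitotic motors differed widely among themselves in control level, from 0.0315 TPM for KIF4B to 143 TPM for KIF22. Across the 14 genes, the log2 control mean of TPM + 1 rose with the GC content of the longest coding transcript in GENCODE release 29 (Pearson r = 0.83, Spearman rho = 0.82) and fell with its length (r = -0.75, rho = -0.84). The GC correlation was 0.10 across the 15 transport motors and 0.52 across the 12 cilium and other motors (rho = 0.096 and 0.64). Over all 41 kinesin genes it was 0.27, and over 22954 genes with a transcript it was 0.18. The length correlation (Pearson r) was 0.17 for transport motors, -0.39 for cilium and other motors and -0.35 for all 41. It was 0.04 over the 22954 genes and -0.26 over the 11515 of them that were kept. These are descriptions over genes that share libraries and depth. KIF20B, KIF18A, KIF14 and KIF11, at 34.2% to 38.3% GC, were all under 3 TPM in the mean, while KIFC1, KIF18B and KIF22, at 57.9% to 58.9%, were at 22.7 TPM or more. The part of base composition in these levels was not tested. With the GC and length trend of each library removed, a choice made after seeing the data, the same 8 mitotic motors were lower.

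**Figure D4:**
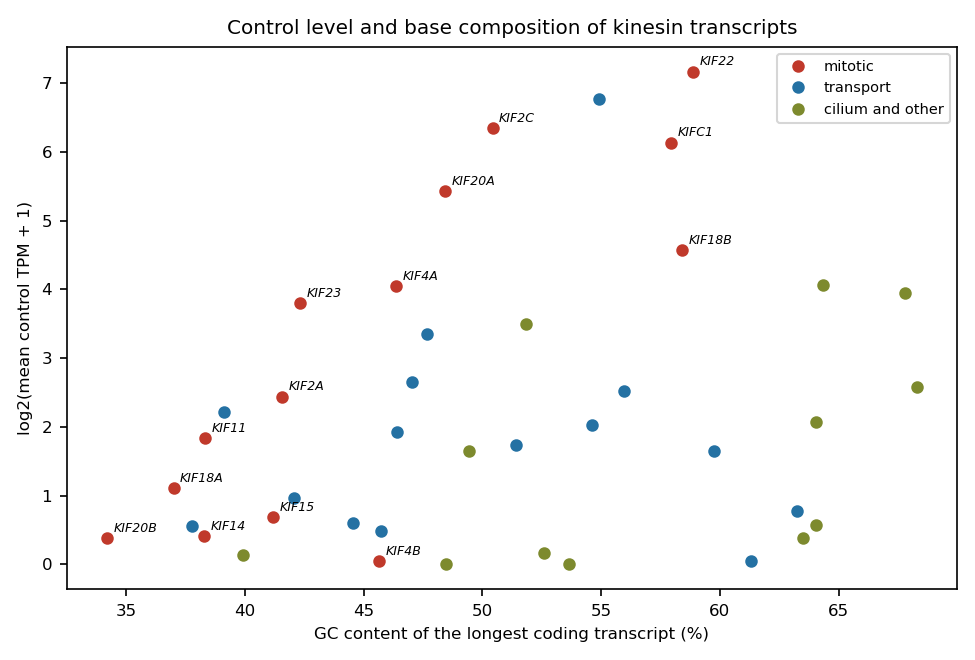
Log2 of the mean control TPM + 1 (n = 3) against GC content of the longest coding transcript for the 41 kinesin genes, with mitotic motors named. Among the red points the level rises with GC content (Pearson r = 0.83, n = 14), while r was 0.10 for the blue transport points (n = 15) and 0.52 for the green cilium and other points (n = 12).

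The mitotic genes also shared promoter letters that the naming rule did not use. Promoter windows were found for 33 of the 41 genes, including all 14 mitotic, 12 transport and 7 other genes. Of their 42 windows, 33 had their last 20 bases in a GENCODE transcript of the gene, so some RefSeq start sites differ from that annotation. TTTGAA or TTTAAA was present in the window of 12 of 14 mitotic genes, 2 of 12 transport genes and 0 of 7 others. The share was 27.9% over all 27305 genes with a RefSeq promoter window. These 27305 are the background for promoter letters and include genes without a TPM value here. CCAAT was present in 11 of 14 mitotic genes, 4 of 12 transport genes and 3 of 7 others, against 39.7% of all genes. Both kinds occurred together in 10 of 14 mitotic genes and in 11.2% of all genes. The E2F letters were found in 1 of 14 mitotic genes, KIF15, and in 2.75% of all genes. KIF2A, the mitotic motor kept without a call, had none of these letters in its window, and KIF22 had CCAAT and no CHR letters. KIF24, called lower outside the mitotic set, also had CCAAT and no CHR letters. Its window, from 34329219, lies outside its GENCODE gene span, which ends at 34311371. Of the 10 kinesin genes called lower, 7 held CHR letters, against 1 of 10 other tested kinesin genes with a window. The part of these letters in the falls was not tested. From -100 to +50, bounds set after seeing the matches, CHR letters were present in 12 of 14 mitotic and 0 of 12 transport genes, against 13.6% of all genes. A match of letters is not evidence that a factor binds there.

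**Figure D5:**
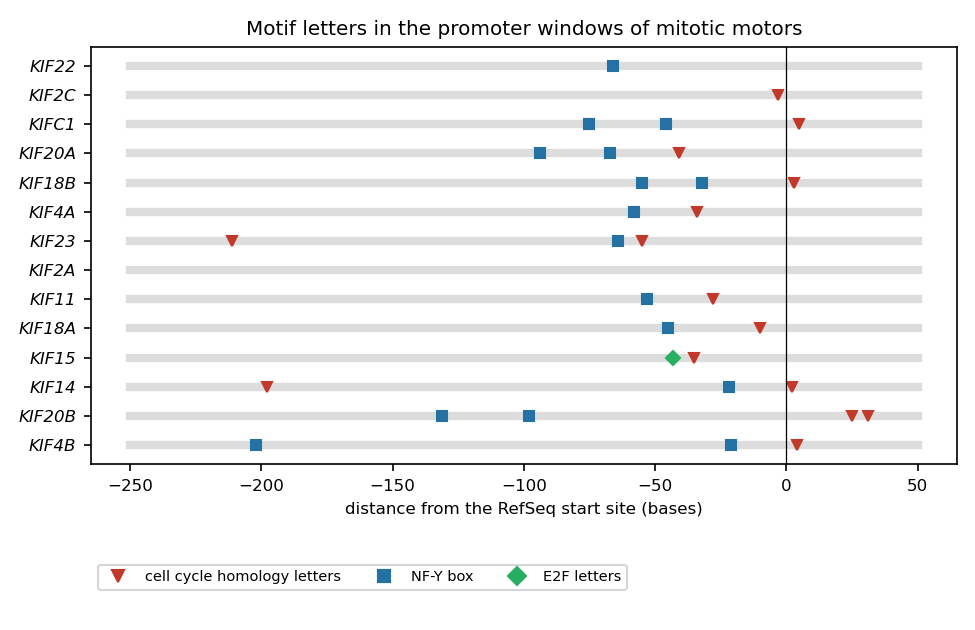
Matches to the CHR letters (red triangles), the NF-Y box CCAAT (blue squares) and E2F letters (green diamond) in the windows of the 14 mitotic motors, from 250 bases before to 50 after the RefSeq start site, ordered by control mean. In 12 of 14 genes CHR letters lie within 100 bases before or 50 after the start site, bounds set after seeing the matches. The KIF2A line has no match.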

How the data were processed

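Gene values are TPM, made by the authors per library and deposited as such; per the submitters' processing notes, the tools were STAR and Salmon and the build GRCh38, with neither versions nor roles. The molecule is labelled polyA RNA, while the labels' protocols describe removal of ribosomal RNA. TPM totals were 990744 to 992038, and the sources used here give no depth, strand setting or annotation.

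The 3 treated and 3 control libraries were set against each other on log2(TPM + 1) in limma 3.58.1 (R 4.3.3), with a variance trend and no covariate, over 12041 genes with TPM of at least 1 in at least 3 libraries. Tests were two-sided, with Benjamini-Hochberg adjustment over all genes kept. The fit was tested on simulated data. The design text calls replicates biological and does not name cultures, so p-values measure only the spread between these libraries. Members and lists were chosen with earlier results of these data known. All members were named, with values per library where a group mean reached 5 TPM or the gene was called, and others as ranges or means; of the partners, 5 fixed genes and up to 4 called genes per list. Further library values were added where a contrast needed them. Coordinates and transcripts are from GENCODE release 29, promoters from RefSeq (33 members matched). Protein sequences, planned for motor domain positions, were not used here.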

Additional observations from a re-analysis of the deposited data

How the results depend on the processing

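Results were recomputed under 17 alternatives, 16 of them planned. The 11 kinesin genes called kept their direction and call in all 184 values that could be had. Of these genes, 5 (KIF20A, KIF18B, KIF4A, KIF11 and KIF24) had no BMH-21 library at 1 TPM. They passed the main filter through controls and had to be lower, so their steady direction says little. Of 229 values for the 14 genes without a call, 11 passed the test and 27 changed sign.

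With no filter on low values, 16 kinesin genes were lower and 2 higher, with 1 transport motor higher and 4 cilium and other motors lower. In that setting 8.85% of 21753 genes were lower and 9.28% were higher. With a mean TPM of at least 5, no cilium and other motor was lower (0), because KIF24 and KIF26A were not tested. Without both control replicate 1 and BMH-21 replicate 3, there were 16 kinesin genes lower, 5 transport motors lower and 7061 calls among all genes, against 4380. Of all genes kept, 34.4% were lower there. Scaling by a trimmed mean or by medians of ratios, and removing the GC and length trend, each gave 1 transport motor lower, KIF21B. Of all genes tested in these settings, 20.6%, 20.7% and 21.8% were lower. The median log2 fold change of mitotic motors was -3.85, and it was -4.65 with a pseudocount of 0.1, -2.31 with no filter and -4.27 at a mean TPM of at least 5. These shifts follow from the pseudocount and from which genes are tested.

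Leaving out each library in turn gave 10 to 12 kinesin genes lower, 8 mitotic motors lower throughout and 0 to 1 transport motors lower. Of the 8 mitotic motors, 4 had no BMH-21 library at 1 TPM and had to be lower. In those fits 12.6% to 23.4% of all genes kept were lower. Over those fits the log2 fold change ran from -0.27 to 0.0088 for KIF12, -0.36 to 0.0583 for KIF13B, -0.30 to 0.0407 for KIF1B, -0.0536 to 0.0706 for KIF1C, -0.0623 to 0.32 for KIF2A, -0.16 to 0.20 for KIF3B, -0.17 to 0.12 for KIF9 and -0.36 to 0.0628 for KIFC2. Signs also turned with both libraries left out, to -0.0295 for KIF13A, -0.027 for KIF21A, -0.22 for KIF2A, -0.29 for KIF3B and 0.10 for KIF9. They turned for KIF1C at -0.0538 and -0.0566 with the trimmed mean and ratio scalings, and with the GC and length trend removed to 0.0402 for KIF12, 0.0557 for KIF9 and 0.14 for KIFC2. The cause was not tested.

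Deviations of same-numbered libraries from their group means correlated at 0.04, -0.14 and 0.02. Control replicate 1 and BMH-21 replicate 3 stood apart from their groups, so these values cannot show whether libraries were paired. A replicate block moved the count of calls from 4380 to 4608 and changed no kinesin call. Unknown depth limits the members under 1 TPM, where single reads can set a value.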
